A study of Rattus norvegicus with 6 samples.

Results

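Acid-sensing ion channels and proton-sensing receptors let a cell read the acidity around it, and 7 such genes of the rat are described here: the channel subunits Asic1, Asic2, Asic3 and Asic4 and the G protein-coupled receptors Gpr4, Gpr65 and Gpr132. They were chosen by gene symbol from the platform's probe table, with the brightest probe set of a gene standing for it. Of the 7 genes, 6 had a probe set with a single gene symbol, 4 channels and 2 receptors, among 14506 genes tested in all. Each of the 6 had 1 probe set. Gpr132, a receptor of immune cells that also answers to lipids, was not analysed here.

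The values come from 6 Affymetrix arrays of total RNA from neurospheres, floating cell clusters grown for 10 days in neural crest medium from dispersed carotid body cells of adult rats. The carotid body is a small organ beside the carotid artery that senses oxygen, carbon dioxide and acid in the blood. The 3 arrays labelled differentiated came from spheres kept without mitogens in hypoxia at 3% oxygen, and the 3 labelled undifferentiated from spheres kept in normoxia with 4 mitogens, EGF, FGF, ET-1 and IGF-1. Mitogens and oxygen therefore changed together, and their effects cannot be told apart. The labels give no genotype, strain or animal age beyond adult, and nothing in them says that the 3 RNA samples of each group were grown independently, so the spread that p-values rest on may be technical. The series set neuron-rich against progenitor-rich spheres. The data did not follow that reading: Th, the tyrosine hydroxylase that marks the catecholamine-making, neuron-like glomus cells, read 10.73, 11.32 and 10.65 in the arrays labelled differentiated, against 13.76, 13.59 and 13.91 in those labelled undifferentiated. The groups are therefore called by their labels throughout. Whether the labels were exchanged between the groups was not tested, and an exchange would turn the sign of every difference given here, that of Asic1 included.

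Acid-sensing ion channels, or ASICs, are trimers of subunits that open a sodium-conducting pore when protons bind outside the cell. Different subunits mix within a trimer and set its sensitivity. The receptors Gpr4, Gpr65 and their relatives hold histidines on the outer face that take up protons and then activate G proteins, mainly Gs and so cyclic AMP. In the rat carotid body, ASICs and background potassium channels of the TASK type have both been described in glomus cells as parts of the response to acid.

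All values are log2 values as deposited, on which 1 unit is a doubling, and a difference is the mean of the arrays labelled differentiated minus that of the arrays labelled undifferentiated. Array medians lay between 5.05 and 5.13 and lower quartiles between 3.37 and 3.52. How far a dim probe set stands above background is not known for these arrays, and levels of different probe sets cannot be ranked against each other. A gene is called changed at a limma p under 0.05 after Benjamini-Hochberg adjustment over all 14506 genes. Of all genes 29.5% were called, 14.7% higher and 14.9% lower, with a median difference of 0.06.

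A single gene of the 6, Asic1, was called changed, and it fell. That is 1 of 6 genes, or 16.7%, against the 29.5% of all genes. The set is too small for this gap to be read as a result, and 2 of the 6 were called without differentiated replicate 3. In the fit of all arrays the 5 genes other than Asic1 differed by -0.17 to 0.40, with limma adjusted p from 0.0856 to 0.669. Of the 6 differences 4 were positive and 2 negative, with a median of 0.27, which was 0.13 without undifferentiated replicate 3 and 0.18 to 0.37 without each of the other arrays. The groups did not overlap for 2 genes, Asic1 and Asic4, against 42.3% of all genes.

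The sequences upstream of the Asic1 start and of both annotated Asic2 starts are shown because Asic1 is the channel gene that changed, while Asic2, whose protein joins Asic1 subunits in mixed channels, was not called. Each is the 250 bases before the start in RefSeq's annotation of the GRCr8 assembly, on the gene's own strand, 5′ to 3′. Capitals mark the GC box, the letters GGGCGG on either strand, which is the core bound by Sp-family transcription factors.
Asic1, chr7:132678457-132678706, plus strand: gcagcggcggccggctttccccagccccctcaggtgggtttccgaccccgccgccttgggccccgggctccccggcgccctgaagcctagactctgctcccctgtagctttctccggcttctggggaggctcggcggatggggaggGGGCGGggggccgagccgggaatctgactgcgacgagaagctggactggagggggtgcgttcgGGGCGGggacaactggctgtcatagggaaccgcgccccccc
Asic2, first start, chr10:67438238-67438487, minus strand: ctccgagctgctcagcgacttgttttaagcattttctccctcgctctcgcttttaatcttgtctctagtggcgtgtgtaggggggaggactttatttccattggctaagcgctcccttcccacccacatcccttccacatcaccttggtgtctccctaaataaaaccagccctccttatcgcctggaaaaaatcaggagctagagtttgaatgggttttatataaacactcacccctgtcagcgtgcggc
Asic2, second start, chr10:66636062-66636311, minus strand: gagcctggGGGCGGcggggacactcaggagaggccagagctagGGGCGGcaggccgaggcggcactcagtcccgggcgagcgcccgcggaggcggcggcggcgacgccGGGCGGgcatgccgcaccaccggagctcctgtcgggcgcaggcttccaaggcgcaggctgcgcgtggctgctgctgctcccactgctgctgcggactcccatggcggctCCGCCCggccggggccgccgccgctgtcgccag
The Asic1 sequence was 72.8% G and C, with 22 CG pairs and 2 GC boxes. The first Asic2 start had 49.6% G and C, 9 CG pairs and 0 GC boxes, and the second 78.8%, 33 CG pairs and 4 GC boxes. Over 33469 rat promoter windows of the same length, the median was 51.2% G and C with 5 CG pairs, and 30.5% held at least 1 GC box. The upstream sequence of Gpr4 had 2 CG pairs, that of Gpr65 had 2, that of Asic3 had 4 and that of Gpr132 had 9, each with 0 GC boxes. Asic4 has no entry in that table. The letters ACGTG, a form of the core of the hypoxia response element, stood on neither strand of any of these 7 sequences. Of all windows 16.6% held them. The other form of that core, GCGTG, was not counted over all windows. It stands in both Asic2 sequences printed above and, on the opposite strand, in that of Gpr132. These are matches of letters, not tested sites.

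Asic1 encodes a subunit of acid-gated channels in neurons. It read 5.21, 5.28 and 5.21 in the arrays labelled differentiated, against 6.62, 6.99 and 6.67 in the arrays labelled undifferentiated. The groups lay apart by 1.33 at their nearest arrays, and the values spanned 0.08 within the differentiated group and 0.37 within the undifferentiated group. The mean was 5.23 ± 0.04 in the arrays labelled differentiated and 6.76 ± 0.20 in those labelled undifferentiated (SD, n = 3 each). Asic1 fell by 1.53 ± 0.13 (SE), with a 95% interval of -1.81 to -1.24, a 2.88-fold difference (limma adjusted p = 5.33e-06). A fall of at least this size was seen for 352 of the 14506 genes, or 2.43%. On their own arrays the differentiated readings lay above 51.8% to 52.3% of all probe sets, near the array median, and the undifferentiated readings above 71% to 77%. These are places of a probe set's signal and do not rank Asic1 against other genes. The platform lists 1 RefSeq transcript for the Asic1 probe set, and with 1 probe set the gene's splice forms could not be measured apart.

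**Figure D1:**
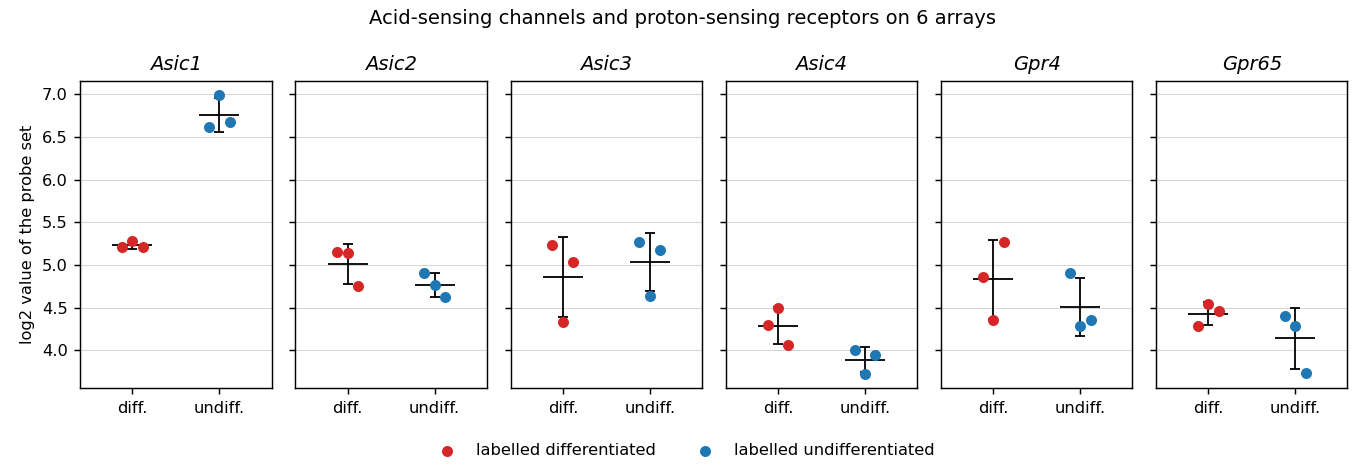
Log2 value of the probe set of each measured gene (vertical axis) on the 3 arrays labelled differentiated (red, left) and the 3 labelled undifferentiated (blue, right), with the group mean and SD in black. Asic1 lay between 5.21 and 5.28 in the arrays labelled differentiated and between 6.62 and 6.99 in those labelled undifferentiated, while the groups of Asic2, Asic3, Gpr4 and Gpr65 overlapped.

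Asic2 subunits need strong acid to open alone and tune the channels they share with Asic1. Asic2 read 5.15, 5.14 and 4.75 in the arrays labelled differentiated, against 4.90, 4.77 and 4.62 in the arrays labelled undifferentiated. The lowest differentiated array lay within the undifferentiated range, so the groups overlapped. The difference was 0.25 ± 0.15 (SE), with a 95% interval of -0.09 to 0.59 (limma adjusted p = 0.274). The platform lists 2 RefSeq transcripts under this probe set, and which forms of the subunit its probes read is not known here.

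Asic3, best known from sensory neurons, gives currents that persist during mild acidosis. It read 5.23, 4.33 and 5.03 in the arrays labelled differentiated, against 5.27, 4.63 and 5.18 in the arrays labelled undifferentiated. Replicate 2 was the lowest array of each group, and the spread within a group, 0.90 in the differentiated and 0.63 in the undifferentiated arrays, was several times the difference between the groups. That difference was -0.17 ± 0.24 (SE), with a 95% interval of -0.69 to 0.36 (limma adjusted p = 0.669), and it was 0.10 without differentiated replicate 2.

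Asic4 forms no proton-gated channel by itself. It read 4.30, 4.49 and 4.06 in the arrays labelled differentiated, against 4.00, 3.72 and 3.94 in the arrays labelled undifferentiated. All 3 differentiated arrays lay above the undifferentiated ones, by 0.06 at the nearest pair, and all 6 readings were below their array's median. The difference was 0.40 ± 0.16 (SE), with a 95% interval of 0.05 to 0.75 before adjustment, and did not pass (limma adjusted p = 0.0856). Without differentiated replicate 3 it was 0.51 and passed (adjusted p = 0.0478). Over the other alternatives the adjusted p ran from 0.0629 to 0.241.

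Gpr4 is best known from endothelial cells, and in mouse neurons of the brainstem it takes part in the breathing response to carbon dioxide. It read 4.86, 4.35 and 5.27 in the arrays labelled differentiated, against 4.91, 4.28 and 4.36 in the arrays labelled undifferentiated. Each group held high and low arrays, and the groups overlapped. The difference was 0.31 ± 0.24 (SE), with a 95% interval of -0.21 to 0.84 (limma adjusted p = 0.377), and ran from 0.10 to 0.55 when each array was left out in turn.

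Gpr65, also called TDAG8, is a proton-sensing receptor of macrophages and lymphocytes. It read 4.28, 4.54 and 4.46 in the arrays labelled differentiated, against 4.40, 4.28 and 3.73 in the arrays labelled undifferentiated. A single array, undifferentiated replicate 3, stood below the rest. The difference was 0.29 ± 0.19 (SE), with a 95% interval of -0.12 to 0.70 (limma adjusted p = 0.297), and it was 0.08 without that array.

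**Figure D2:**
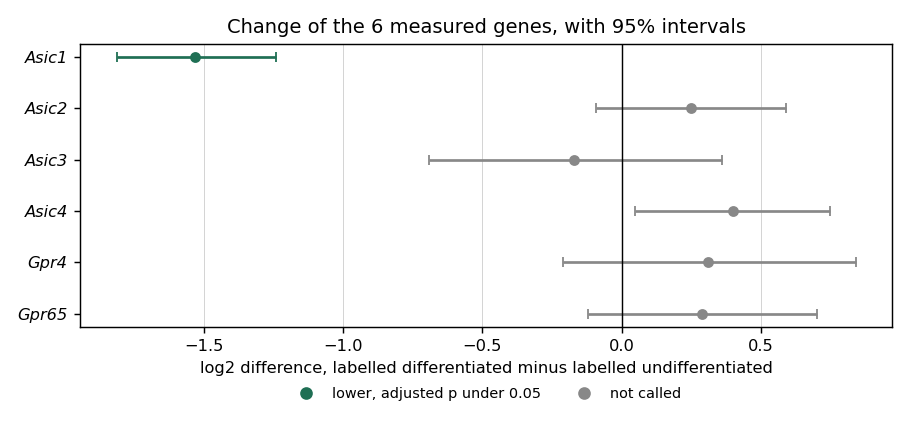
Log2 difference of each measured gene (horizontal axis), labelled differentiated minus labelled undifferentiated, with its 95% interval from limma before adjustment for many genes (bars). The Asic1 interval of -1.81 to -1.24 lies apart from those of the other 5 genes, which reach from -0.69 to 0.84.

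Cell type markers were read on the same arrays, since in bulk RNA fewer cells of a type and less RNA per cell cannot be told apart. All 17 measured glomus cell markers of 18 listed were called lower in the arrays labelled differentiated, with a median difference of -2.54. Their mean level lay between 7.26 and 7.63 in the arrays labelled differentiated and between 9.93 and 10.02 in those labelled undifferentiated. Gch1, which starts the synthesis of the cofactor of tyrosine hydroxylase, fell by 3.23 and Cox4i2, a cytochrome oxidase subunit of oxygen-sensing cells, by 3.50. The fall of Asic1 thus went with lower glomus cell markers, and their part in it was not tested. Glial and Schwann markers differed in both directions. Of 12 measured of 14 listed, 3 were called higher and 1 lower, with a median of 0.22 and a mean level of 6.44 to 6.93 in the arrays labelled differentiated and 6.53 to 6.73 in those labelled undifferentiated. The myelin gene Mbp fell by 1.97 on the brighter of its 2 probe sets, and its other probe set is not given here. The transcription factors Egr2 and Foxd3 rose by 0.61 and 0.35. Egr2 lost its call without differentiated replicate 3 (limma adjusted p = 0.0816), undifferentiated replicate 2 (0.0827) or undifferentiated replicate 3 (0.0716). Foxd3 lost its call with median centring (limma adjusted p = 0.0657) and without 4 of the arrays in turn (0.0561 to 0.115), and the number of calls in the list was 1 without differentiated replicate 3, 1 without undifferentiated replicate 2 and 2 without undifferentiated replicate 3.

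Endothelial markers, read beside Gpr4, were mixed in direction. Of 17 measured of 18 listed, 3 were called higher and 2 lower, or 29.4% against 29.5% of all genes, with a median of 0.06. Erg and Eng rose by 0.96 and 0.80, and Cldn5 and Egfl7 fell by 2.31 and 0.50. Egfl7 lost its call without undifferentiated replicate 3 (limma adjusted p = 0.0752) or differentiated replicate 2 (0.0508). Their mean level was 4.97, 4.85 and 5.06 in the arrays labelled differentiated, against 5.01, 4.89 and 4.83 in those labelled undifferentiated. The 3 arrays with the highest means, differentiated replicates 1 and 3 and undifferentiated replicate 1, were also the 3 with the highest Gpr4. Of the 17 markers 4 lay above the array median on all 6 arrays, Eng, Erg, Cldn5 and Egfl7, and 8 lay below it on all 6, as places of signal that do not rank the genes. Among these 8 were the endothelial adhesion genes Pecam1 and Cdh5, named here outside the rule. Pecam1 read 3.93 to 4.51 in the arrays labelled differentiated and 3.52 to 3.93 in those labelled undifferentiated, and Cdh5 read 3.77 to 4.33 in the arrays labelled differentiated and 3.70 to 4.20 in those labelled undifferentiated. Eng, a coreceptor of the TGF-beta family that other cells also make, read 9.37 to 9.71 in the arrays labelled differentiated and 8.61 to 9.05 in those labelled undifferentiated.

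Leukocyte markers were read beside Gpr65. Of 23 measured of 24 listed, 4 were called higher and 5 lower, with a median of -0.002. Cd48 and the lipopolysaccharide receptor Cd14 rose by 0.72 and 0.68, while Cd74, the invariant chain of antigen presentation, and Cybb, the oxidase subunit of phagocytes, fell by 2.64 and 1.27. Their mean level was 6.92, 7.42 and 6.83 in the arrays labelled differentiated, against 7.35, 7.20 and 6.88 in those labelled undifferentiated. Differentiated replicate 2, the array with the highest Gpr65, was also the highest for 13 of the 23 markers. Undifferentiated replicate 3, the array with the lowest Gpr65, was the lowest for 9 of them, and so was differentiated replicate 3, where Gpr65 was at 4.46. No list of markers held a gene below the lower quartile on all 6 arrays. The part of the endothelial and leukocyte cells in the readings of the receptors was not tested.

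**Figure D3:**
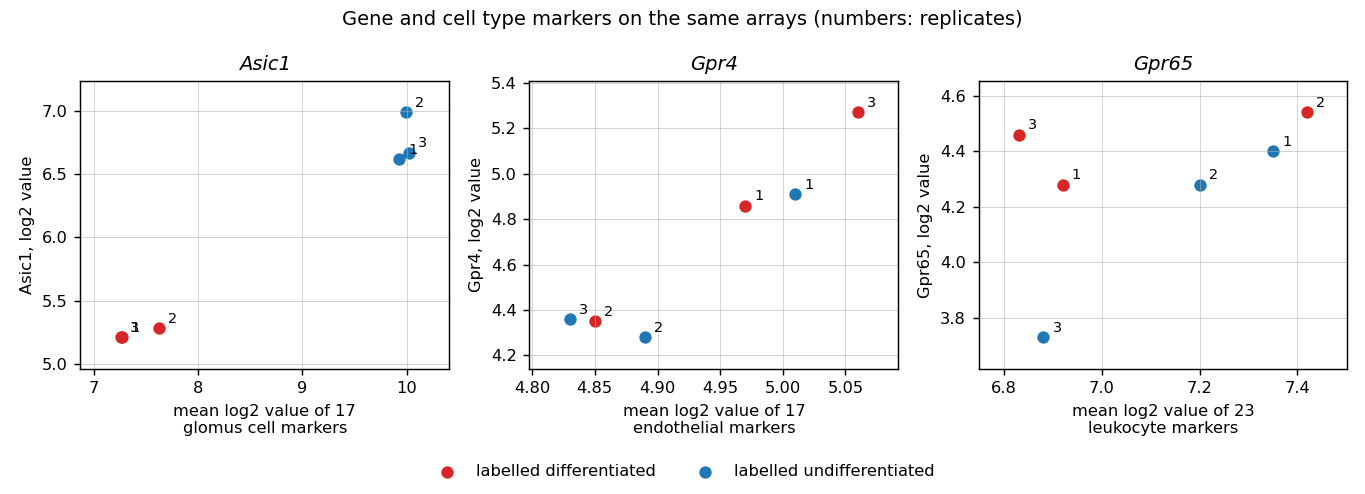
Log2 value of Asic1, Gpr4 and Gpr65 (vertical axes) against the mean log2 value of the measured glomus cell, endothelial and leukocyte markers (horizontal axes) on each array labelled differentiated (red) and undifferentiated (blue), numbered by replicate. The groups lie apart in the panel of Asic1 and are mixed in the panels of Gpr4 and Gpr65. Differentiated replicates 1 and 3 nearly coincide in the panel of Asic1.

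Among other channels and receptors gated or tuned by pH, the calls leaned to falls while the differences as a whole did not. Of 19 measured of 24 listed, 11 had a positive and 8 a negative difference, and 1 was called higher and 6 lower, or 36.8% against 29.5% of all genes, with a median of 0.03. The largest falls in this list were those of the TASK potassium channels, which acid closes. Kcnk9, or TASK-3, read 7.32, 7.45 and 7.33 in the arrays labelled differentiated, against 10.28, 10.04 and 9.90 in the arrays labelled undifferentiated, and fell by 2.71 ± 0.11 (SE, limma adjusted p = 4.93e-08). Kcnk3, or TASK-1, read 5.67, 5.54 and 5.49 in the arrays labelled differentiated, against 7.78, 7.78 and 7.86 in the arrays labelled undifferentiated, and fell by 2.24 ± 0.10 (SE, limma adjusted p = 8.8e-08). Otop3, of the otopetrin family of proton channels, fell by 1.46, and Pacc1, the proton-activated chloride channel, fell by 1.24. The stretch- and acid-tuned potassium channel Kcnk2 fell by 0.87, and the lysosomal channel Tmem175 fell by 0.53. These 4 lie outside the naming rule and were picked for their values. The single rise was that of Kcnj16, a pH-sensitive inward rectifier, by 0.95 ± 0.29 (SE, limma adjusted p = 0.0278). The readings labelled differentiated reached from 3.22 to 4.59, and the call was lost without differentiated replicate 1 (limma adjusted p = 0.0756) or 3 (0.0922) and without undifferentiated replicate 1 (0.096) or 3 (0.0684). Trpv1, the heat- and acid-gated channel of pain neurons, differed by 0.01, with a 95% interval of -0.33 to 0.34, and Asic5, a relative of the ASICs, by -0.18, with an interval of -0.54 to 0.19. Both were also picked outside the rule.

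**Figure D4:**
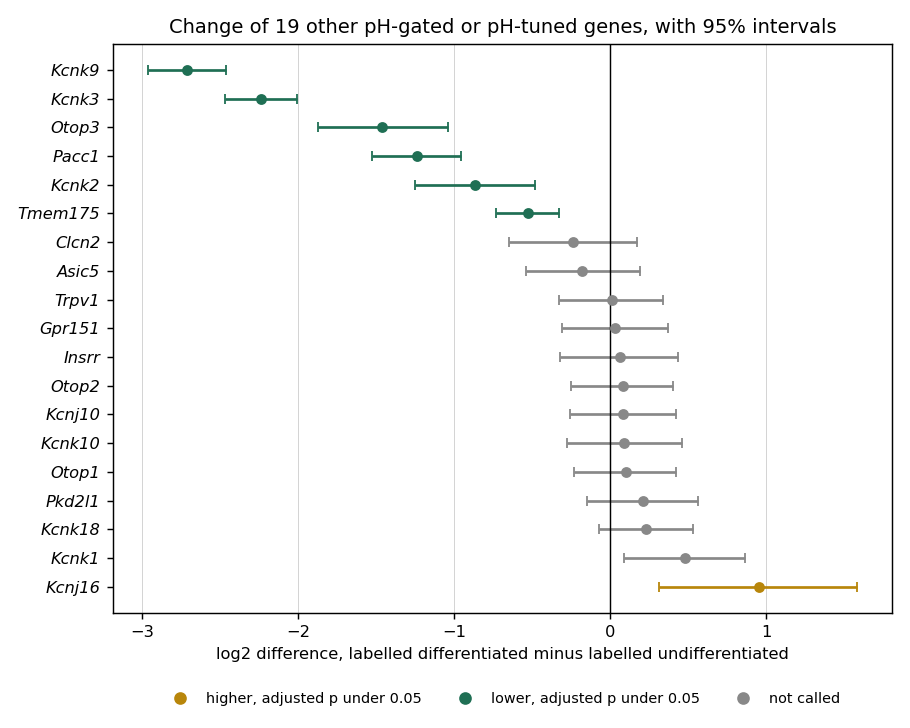
Log2 difference (horizontal axis), labelled differentiated minus labelled undifferentiated, of 19 other pH-gated or pH-tuned genes with 95% intervals before adjustment (bars). Kcnk9 at -2.71 and Kcnk3 at -2.24 lie lowest, and Kcnj16 at 0.95 highest.

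The epithelial sodium channels form another branch of the ASIC family, and 0 of 3 measured of 4 listed were called by limma, with 0 at an unadjusted p under 0.05 as well. Scnn1a differed by 0.20 and Scnn1b by 0.14, with 95% intervals of -0.11 to 0.50 and -0.24 to 0.51. Proteins and peptides that bind or modulate ASICs were divided. Of 15 measured of 16 listed, 3 were called higher and 4 lower, with a median of 0.07. Pick1, the scaffold protein that holds Asic1 and Asic2 by their tails, read 5.63, 5.56 and 5.55 in the arrays labelled differentiated, against 6.38, 6.15 and 6.30 in those labelled undifferentiated, and fell by 0.70 (limma adjusted p = 0.000741). Prkca, the protein kinase C that Pick1 also binds, fell by 0.83. S100a10, an annexin partner that carries Asic1 to the cell surface, rose by 0.73 (limma adjusted p = 0.00209). Ctsk, a collagen-degrading protease whose tie to ASICs is less settled, rose by 1.80.

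Membrane transporters that move acid or bicarbonate changed often: of 24 measured of 28 listed, 6 were called higher and 8 lower, or 58.3%, with a median of -0.07. Slc4a7, a sodium bicarbonate carrier, and Slc4a2, an anion exchanger, rose by 1.16 and 0.78. Atp6v0a1, a subunit of the vacuolar proton pump, fell by 2.08, and the sodium-proton exchanger Slc9a2 fell by 1.95. The 4 genes had limma adjusted p of at most 0.000183. The groups of each of the 4 did not overlap, which their choice by smallest p favours. Of all genes, 42.3% had groups that did not overlap.

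The genes that carry the signal of Gs-coupled receptors such as Gpr4 and Gpr65 were also divided. Of 26 measured of 28 listed, 8 were called higher and 9 lower, or 65.4%, with a median of 0.11. Adcy4, an adenylyl cyclase, and Pde4d, a phosphodiesterase that breaks down cyclic AMP, rose by 1.05 and 0.87. Prkar1b, a regulatory subunit of protein kinase A, fell by 1.62, and Crem, a cyclic AMP-responsive transcription factor, fell by 1.78. Gnas itself, the gene of the Gs alpha subunit, fell by 1.43 on the brighter of its 2 probe sets (limma adjusted p = 4.61e-06). The gene is a later addition, chosen with its value in view, and its other probe set is not given here. Of 21 genes of G12/13 and Gq coupling 5 were called higher and 7 lower, with a median of 0.06. Rock2, a kinase of the actin cytoskeleton, and Plcb3, a phospholipase C, rose by 1.14 and 0.54, while Prkcb, a protein kinase C, and Plcb4 fell by 2.64 and 1.48. The number of calls in that list was 7 without differentiated replicate 3 and 7 without undifferentiated replicate 3.

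The genes whose readings ran most like Asic1 over the 6 arrays, by Pearson's r, were Rgs7, a regulator of G protein signalling (r = 0.9984), Pfkm, a phosphofructokinase (r = 0.9984), and Edrf1 (r = 0.9975). Rgs7 read 3.89, 3.90 and 3.83 in the arrays labelled differentiated, against 4.50, 4.68 and 4.55 in those labelled undifferentiated. Pfkm read 7.75, 7.77 and 7.76 in the arrays labelled differentiated, against 8.26, 8.35 and 8.29 in those labelled undifferentiated. Edrf1 read 5.88, 5.90 and 5.87 in the differentiated and 6.32, 6.39 and 6.35 in the undifferentiated arrays. Like Asic1, all 3 were highest on undifferentiated replicate 2, which their choice by r on these same arrays favours. Their falls of 0.71, 0.54 and 0.47 were smaller than that of Asic1. The measure takes in the gap between the groups, which many genes share, and 934 genes had an r above 0.95 with Asic1.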

How the data were processed

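The authors deposited 1 value for each of 29214 probe sets on 6 arrays, taken here as log2 from its range of 0.42 to 14.09; their normalization, summarization and software: not given in the sources used here. Per the labels' protocols, biotinylated cRNA was made from 100 ng of total RNA. Of the probe sets, 15310 had 1 gene symbol in the platform's table, 323 had several and 13581 were not listed. Symbols were checked by gene ID against RefSeq's GRCr8 table (99.8% matched, 0 changed), and 14506 genes were tested.

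With R 4.3.3 and limma 3.58.1, lmFit was run on all 6 arrays at once and followed by trended eBayes, two-sided, with no block and Benjamini-Hochberg adjustment over all genes. An exact permutation test of 3 against 3 arrays cannot go below p = 0.10 and was not used. The fit was tested on simulated data. Same-numbered arrays deviated together with correlations of 0.115, 0.124 and -0.004, so the numbers were not taken as pairs.

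The genes, the 10 lists and the tests were chosen with earlier results of these data known. From each list the text names the 2 genes with the smallest p called in each direction, or with none called the 2 with the smallest p, and for a called gene the 3 most alike by Pearson's r. Alternatives tried were median centring, quantile normalization, the replicate number as a block, a filter that keeps genes whose mean exceeds the 40th percentile, the mean or the most variable of a gene's probe sets, eBayes without the trend or robust, and leaving out each array. Figures were drawn with matplotlib 3.10.9.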

Additional observations from a re-analysis of the deposited data

How the results depend on the processing

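The call and direction of Asic1 held under all 14 alternatives, with a difference of -1.60 to -1.41 when each array was left out (limma adjusted p at most 5.96e-05) and -1.55 to -1.52 otherwise. As each of the 6 genes had 1 probe set, averaging its probe sets or taking the most variable could not change its readings. Without differentiated replicate 3 the number of the 6 genes called was 2, and it was 1 to 2 over the arrays left out, since Asic4 then passed (0.51, adjusted p = 0.0478; 0.30 to 0.51 over the arrays left out). Asic3 turned to 0.10 without differentiated replicate 2 (adjusted p = 0.776), with a range of -0.36 to 0.10. The count of all genes called ran from 3545 to 4030 when each array was left out and from 4048 to 4472 otherwise. With the replicate block, which the labels do not show to pair the arrays, 4430 genes were called, the change of Asic1 had an adjusted p of 3.11e-06, and no call among the 6 genes changed. Leaving out dim genes removed 5 of the 6, all but Asic1, so that setting gave no value for them. Leaving out each array gave 7 to 10 calls in the list of G12/13 and Gq coupling and 1 to 4 in the glial list, which had 2 with median centring. The cause of these shifts was not tested; fewer arrays enter each such fit. With 3 arrays a group, each of the 5 genes not called has its own 95% interval, before adjustment, of differences that these data do not exclude. It was -0.69 to 0.36 for Asic3 and -0.21 to 0.84 for Gpr4. It was -0.09 to 0.59 for Asic2, 0.05 to 0.75 for Asic4 and -0.12 to 0.70 for Gpr65.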
